A study of Mus musculus with 4 samples.

Results

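Valine, isoleucine and propionate breakdown is represented here by 9 genes, Acad8, Hibch, Hibadh, Aldh6a1, Acadsb, Hsd17b10, Pcca, Pccb and Mcee. They were chosen by gene symbol from the 54752 rows of the count table, and all 9 were among the 15283 genes that passed the filter on low counts. The set was proposed with the fold changes of this same contrast, mutant against wild type, in view. Differences of the 9 genes between genotypes are therefore a description, and the false discovery rates (FDR) given beside them are not independent evidence. RNA of whole mouse hearts at postnatal day 14 was sequenced in 2 libraries labelled Carm1 mutant and 2 labelled wild type. Carm1 encodes an arginine methyltransferase that modifies histones and transcriptional coactivators. The allele, the strain, any Cre driver and whether a library came from 1 animal or a pool were not stated in the labels, and the series text calls the hearts neonatal.

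Mitochondria break down valine and isoleucine by a route that resembles fatty acid oxidation. After transamination and oxidative decarboxylation, each branched acyl-CoA is dehydrogenated, hydrated and oxidised, and both amino acids yield propionyl-CoA. Propionyl-CoA is carboxylated, epimerised and rearranged to succinyl-CoA, which enters the tricarboxylic acid cycle. The heart oxidises branched-chain amino acids as a minor fuel, and the pathway replenishes cycle intermediates.

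Library totals were 22217442 and 11677604 counts for mutant replicates 1 and 2, and 21719161 and 20778420 counts for wild type replicates 1 and 2. Carm1 itself had 897 and 432 counts in the mutant libraries and 803 and 1025 in wild type, a log2 fold change of −0.54 (SE 0.19, edgeR FDR 0.114), and a count over the whole gene does not identify an allele. Sex-linked transcripts divided the libraries as the genotype labels did. Xist had 8116 and 3921 counts in the mutant libraries and 12 and 15 in wild type, whereas Uty had 0 and 0 against 170 and 290. Genotype and sex thus cannot be told apart in any comparison here. Libraries differed in a trend with transcript length. Across genes, the deviation of wild type replicate 1 from the mean of all libraries had a Spearman's rho of −0.34 with length. That rho was 0.21 and −0.00045 in mutant replicates 1 and 2 and 0.27 in wild type replicate 2. Each library is part of that mean, so a trend in any library affects the values of the others. The measure therefore does not assign the trend to a single library. Heart identity was clear in all libraries, with 8 cardiomyocyte markers measured in each, while markers of skeletal muscle and adipose tissue were near 0 (no gene above 14 and 33 counts in a library).

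The promoter windows of Pcca and Pccb are shown because their products form 1 enzyme, and that of Hsd17b10 because it is the member on the X chromosome. Each runs from 250 bases before to 50 bases after the RefSeq gene start (GRCm38.p6), written 5′ to 3′ along the gene, with motif matches in capitals.
Pcca, chr14:122534078-122534377, plus strand: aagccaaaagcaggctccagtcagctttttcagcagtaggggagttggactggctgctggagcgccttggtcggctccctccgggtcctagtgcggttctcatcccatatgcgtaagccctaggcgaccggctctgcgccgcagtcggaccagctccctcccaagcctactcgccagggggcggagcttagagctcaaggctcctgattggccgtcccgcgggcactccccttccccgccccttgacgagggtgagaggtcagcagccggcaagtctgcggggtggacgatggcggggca
Pccb, chr9:101034835-101035134, minus strand: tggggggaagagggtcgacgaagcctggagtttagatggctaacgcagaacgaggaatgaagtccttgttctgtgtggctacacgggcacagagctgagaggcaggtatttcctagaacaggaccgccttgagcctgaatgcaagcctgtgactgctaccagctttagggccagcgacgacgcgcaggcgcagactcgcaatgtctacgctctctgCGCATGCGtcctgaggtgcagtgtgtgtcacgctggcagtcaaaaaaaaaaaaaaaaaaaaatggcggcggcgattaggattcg
Hsd17b10, chrX:152001646-152001945, plus strand: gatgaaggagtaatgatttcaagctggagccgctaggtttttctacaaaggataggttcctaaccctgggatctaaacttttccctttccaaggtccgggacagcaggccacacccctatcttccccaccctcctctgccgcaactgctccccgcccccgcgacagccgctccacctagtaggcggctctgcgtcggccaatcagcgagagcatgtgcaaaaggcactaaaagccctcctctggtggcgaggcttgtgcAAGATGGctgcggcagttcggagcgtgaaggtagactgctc
Both strands were searched for AAGGTCA (half-site of oestrogen-related receptors), CCGGAAG (core of ETS sites), GCATGCG (part of the NRF1 palindrome) and AAGATGG (part of the YY1 site). All 9 members had at least 1 window, and 11 windows were searched in all. The capitals in Pccb are 2 overlapping matches to GCATGCG, one on each strand, 34 and 33 bases before the gene start. The capitals in Hsd17b10 are a match to AAGATGG beginning at base 10 after the start. None of the 4 motifs was found in the other windows, that of Pcca shown above included. Among 32851 windows of the same length the shares with a match were 4.72%, 8.86%, 3.58% and 6.34%, in the order the motifs are named. Windows of the 9 genes held 4 to 29 CpG dinucleotides, against a median of 7 over all windows, and 42.3% to 66.3% G or C against a median of 52.7%.

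The 9 genes together took a smaller share of reads in both mutant libraries. Their summed level was 413.4 and 425.4 CPM in the mutant libraries and 811.2 and 658 CPM in wild type. CPM is the usual scaling of counts to library size, here with factors from the trimmed mean of M values (TMM). As a share of all raw counts the sum was 0.0467% and 0.0495% in the mutant libraries and 0.0653% and 0.062% in wild type. In each of the 9 genes both mutant libraries were below both wild-type libraries. Of all 15283 genes tested, 28.7% were lower in this way. The members' median log2 fold change was −0.81, beside 0.02 over all genes and −0.11 over the 3955 genes within the members' range of abundance. With an FDR threshold of 0.05, 2 of the 9 genes were called lower, Aldh6a1 and Pcca, 0 were called higher and 7 did not pass edgeR's quasi-likelihood test. The share of all tested genes called lower was 4.58%, the share called higher was 2.79% and the share called in either direction 7.37%. Among genes of the members' abundance range 7.1% were called lower. The DESeq2 Wald test called 7 members lower, beside 7.92% of all genes it tested. Because the members were chosen with this contrast known, nothing is read from their share.

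**Figure D1:**
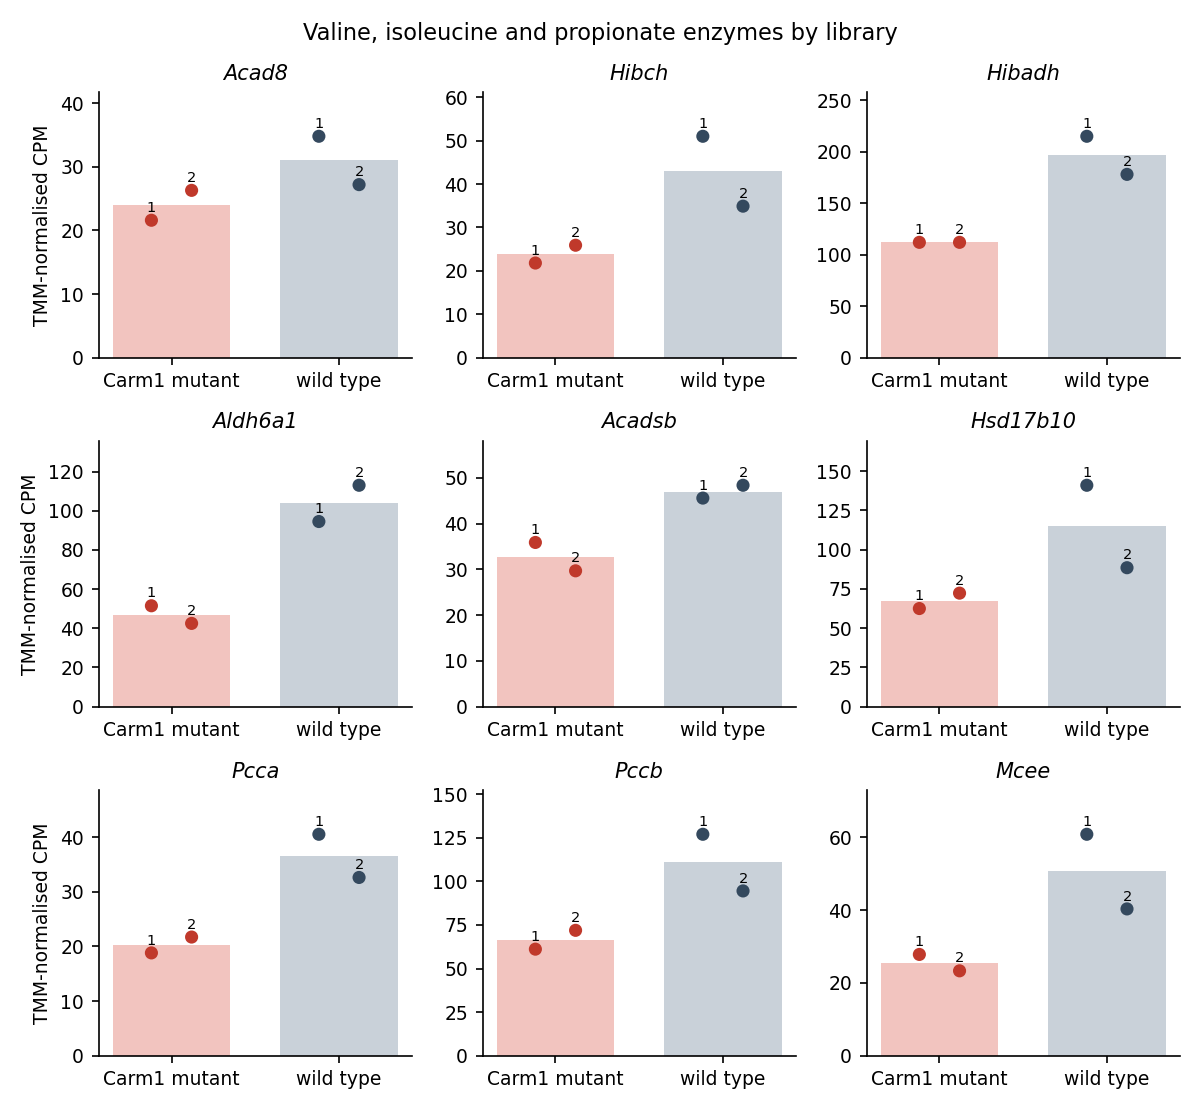
TMM-normalised CPM of the 9 genes, with a point for each library (1 and 2 are the replicate numbers) and a bar for the mean of the 2 libraries. In every panel both Carm1 mutant points lie below both wild-type points, most closely in Acad8, where 26.3 CPM in mutant replicate 2 lies beside 27.2 CPM in wild type replicate 2.

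The valine branch opens with Acad8, the isobutyryl-CoA dehydrogenase, which was the least changed member. It had 21.6 and 26.3 CPM in the mutant libraries and 34.8 and 27.2 CPM in wild type. The nearest libraries of the 2 groups differed by less than the wild-type libraries did from each other. The log2 fold change was −0.37 with a 95% interval of −0.86 to 0.11 (edgeR FDR 0.285), and the interval holds both no change and a decrease as large as that of Pcca. On library totals alone it was 0.03.

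Hibch and Hibadh act in sequence after hydration. Hibch is the hydrolase that releases free hydroxyisobutyrate from CoA, and Hibadh is the dehydrogenase that oxidises it to methylmalonate semialdehyde. Hibch had 21.8 and 25.9 CPM in the mutant libraries against 51 and 34.9 CPM in wild type, with a log2 fold change of −0.85 (SE 0.23, edgeR FDR 0.066). Hibadh had 112 CPM in each mutant library and 215 and 178 CPM in wild type, with a log2 fold change of −0.81 (SE 0.20, edgeR FDR 0.052). The mutant libraries thus agreed closely in Hibadh, while the wild-type libraries spread widely in Hibch. Neither gene passed the threshold in edgeR, and both did in DESeq2 (Wald FDR 0.0226 for Hibch and 0.00558 for Hibadh). The per-length ratio of Hibch to Hibadh was 0.194 and 0.231 in the mutant libraries and 0.236 and 0.195 in wild type, so the ranges overlapped.

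Aldh6a1, the methylmalonate semialdehyde dehydrogenase that ends the valine branch in propionyl-CoA, had the largest fitted decrease of the 9 genes. It had 51.5 and 42.5 CPM in the mutant libraries against 94.5 and 113 CPM in wild type, means of 47 ± 6.39 and 104 ± 13.2 CPM (SD, n = 2 each). It fell by 1.14 on the log2 scale (SE 0.21, 95% interval −1.62 to −0.66, edgeR FDR 0.0236). The 2 groups were well apart, and the gap between them was wider than the distance between the libraries of either group. The call was not made on library totals alone (−0.76, edgeR FDR 0.0736), without mutant replicate 1 (−1.29, FDR 0.11) or without mutant replicate 2 (−1.02, FDR 0.261). Of its exon bases, 1078 overlap the antisense gene Bbof1, which had 40 and 17 counts in the mutant libraries and 28 and 44 in wild type, against 577 to 2216 counts for Aldh6a1.

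The isoleucine branch held 0 genes called by edgeR or limma-voom. Both its members had an unadjusted edgeR p under 0.05, and DESeq2 called 1, Hsd17b10. Acadsb, the short/branched-chain dehydrogenase that oxidises methylbutyryl-CoA, had 35.9 and 29.7 CPM in the mutant libraries against 45.6 and 48.4 CPM in wild type. Its log2 fold change was −0.52 (95% interval −0.96 to −0.08, edgeR FDR 0.127), and −0.13 on library totals. Hsd17b10, the dehydrogenase of the later isoleucine step and also a subunit of mitochondrial RNase P, had 62.5 and 72.3 CPM in the mutant libraries against 141 and 88.5 CPM in wild type. The wild-type libraries were the most discordant of any member here, 0.68 apart on the log2 scale. The log2 fold change of −0.77 (SE 0.26, edgeR FDR 0.103) was −0.41 without wild type replicate 1. Hsd17b10 lies on the X chromosome, and the libraries differed in sex-linked transcripts as given above.

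Propionyl-CoA carboxylase is built from a biotin-carrying alpha subunit (Pcca) and a beta subunit (Pccb), and both subunit transcripts were lower in the mutant libraries. Pcca had 18.8 and 21.7 CPM in the mutant libraries against 40.5 and 32.6 CPM in wild type and fell by 0.85 on the log2 scale (SE 0.20, 95% interval −1.32 to −0.39, edgeR FDR 0.0447). Pccb had 61.1 and 71.9 CPM against 127 and 94.5 CPM, with a log2 fold change of −0.74 (SE 0.22, edgeR FDR 0.0799). The per-length ratio of Pcca to Pccb was 0.276 and 0.271 in the mutant libraries and 0.286 and 0.309 in wild type. It moved by only −0.12 on the log2 scale although both subunits were lower, and the 2 groups narrowly did not overlap. The ratios of Acadsb to Acad8, Mcee to Pccb, Aldh6a1 to Hibadh and Hsd17b10 to Acadsb overlapped between groups, as did that of Hibch to Hibadh. The share of all gene pairs that separate in this way was not computed. The call of Pcca was lost on library totals (−0.45, FDR 0.162), with upper-quartile factors (FDR 0.0579), and without mutant replicate 1 (FDR 0.436) or mutant replicate 2 (FDR 0.235). Pcca shares 241 exon bases with the antisense gene Ggact, whose counts were 179 and 103 in the mutant libraries and 204 and 202 in wild type, against 295 to 709 for Pcca. If the counting ignored strand, part of those counts cannot be assigned.

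Mcee, the epimerase that converts methylmalonyl-CoA to the form the mutase accepts, lay at the threshold. It had 27.8 and 23.3 CPM in the mutant libraries against 60.8 and 40.3 CPM in wild type, a log2 fold change of −0.98 (SE 0.24, 95% interval −1.54 to −0.42). Its edgeR FDR was 0.050002, which is not a call at 0.05, and its DESeq2 Wald FDR was 0.00652. The mutant libraries reached 50.5% of the wild-type mean. The log2 fold change was −0.67 without wild type replicate 1.

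**Figure D2:**
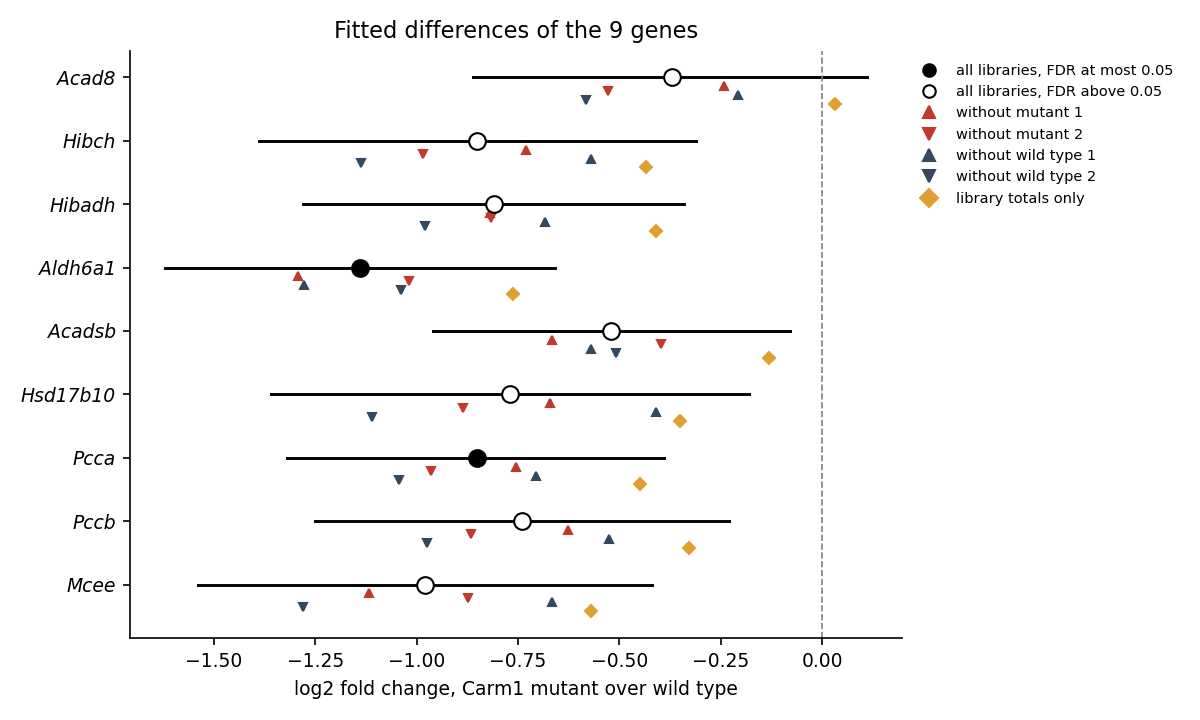
Fitted log2 fold change of each gene, Carm1 mutant over wild type, with its 95% interval, and the estimates without each library or with library totals alone. Estimates without wild type replicate 1 lie nearer 0 in 7 genes and farther in Aldh6a1 (−1.28) and Acadsb (−0.57). Library totals move every gene upward and put Acad8 at 0.03.

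Differences between the 2 wild-type libraries were of the same order as some of the differences between genotypes. Wild type replicate 1 was above replicate 2 in 7 of the 9 genes, by 0.27 to 0.68 on the log2 scale, and below it in Aldh6a1 (−0.26) and Acadsb (−0.08). The mutant libraries differed from each other by at most 0.28 in size, in either direction. The members' median log2 fold change was −0.73 and −0.87 without mutant replicates 1 and 2, and it was −0.57 without wild type replicate 1 and −1.04 without wild type replicate 2. The number of members called lower was 0, 0, 7 and 9 in the same order, while 1.15%, 0.987%, 8.76% and 19.5% of all tested genes were called lower in those fits. With a library left out, the spread rests on the pair that remains. Counts of the wild-type pair gave a chi-square of 51.1 per degree of freedom, and those of the mutant pair gave 11.5. This measure rises with sequencing depth, and mutant replicate 2 had the smallest library total. How much of the difference between the 2 values comes from depth was not computed. Why the numbers of calls differed among these fits was not tested. On library totals alone the median was −0.41, beside 0.41 over all genes, and 0 members were called, with 1.35% of all tested genes called lower.

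Per length, the members covered a wide range of levels, and their order was much the same in both groups. The highest were Hsd17b10, at 68 ± 6.97 RPKM (CPM divided by transcript length in kilobases) in the mutant and 116 ± 37.8 RPKM in wild type, and Hibadh, at 61.4 ± 0.237 and 108 ± 14.4 RPKM (SD, n = 2 each). The difference between these 2 genes in wild type lay within the spread of Hsd17b10. Mcee followed with 30.9 ± 3.77 RPKM in the mutant and 61.1 ± 17.5 RPKM in wild type, and Pccb with 28.7 ± 3.28 and 47.8 ± 9.92 RPKM, and these too overlapped in range. Aldh6a1, Hibch and Acadsb lay at 13.8 ± 1.88, 13 ± 1.59 and 13.3 ± 1.77 RPKM in the mutant and could not be ordered there. In wild type the same genes formed a middle group at 30.5 ± 3.89, 23.5 ± 6.19 and 19.1 ± 0.782 RPKM, with neighbours overlapping in range. The lowest were Pcca and Acad8, at 7.82 ± 0.79 and 8.3 ± 1.14 RPKM in the mutant and 14.1 ± 2.17 and 10.7 ± 1.85 RPKM in wild type. Acad8 was below Pcca in both wild-type libraries, while the ranges of the 2 genes overlapped in the mutant. Hsd17b10 made up 26.2% and 29.2% of the members' summed RPKM in the mutant libraries and 29.1% and 24.1% in wild type. Hibadh made up 25.6% and 24.5% in the mutant libraries and 24.1% and 26.4% in wild type, so both shares overlapped between groups.

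The genes lie on 7 chromosomes, with Acad8 and Pccb on chromosome 9 and Acadsb and Mcee on chromosome 7. The coding transcripts used for length ran from 828 bases in 3 exons (Mcee) to 3399 bases in 12 exons (Aldh6a1), and that of Pcca has 24 exons. In the shortest transcripts, Mcee and Hsd17b10 (992 bases), wild type replicate 1 exceeded replicate 2 by 0.59 and 0.68 on the log2 scale. In Aldh6a1 and Acadsb (2466 bases) it did not exceed replicate 2, but in Acad8 (2885 bases) and Pcca (2592 bases), which are longer than Acadsb, it did, by 0.35 and 0.31. Adjusting for transcript length and GC content gave a member median of −0.71 and 7 lower calls, with 10.6% of all tested genes called lower in that fit. Processed copies of Hibch, Hibadh and Acadsb are annotated, with 92.6%, 91.7% and 90.1% identity. The copies had at most 10 counts in any library, so they took few reads, whatever the counting did with reads that match both.

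Cardiomyocyte transcripts moved with the members. The summed level of 8 cardiomyocyte markers was 42034 and 45469 CPM in the mutant libraries and 84821 and 70909 CPM in wild type, and 7 of the 8 had lower values in both mutant libraries than in either wild-type one. In that list 1 gene, Pln, was called lower and 0 higher, and the median log2 fold change was −0.86. The 9 genes amounted to 0.984% and 0.936% of the marker sum in the mutant libraries and 0.956% and 0.928% in wild type, so this ratio did not separate the groups. Myh6 alone made up 27.4% to 40.2% of the marker sum. Without it the ratio was 1.46% and 1.34% in the mutant libraries and 1.32% and 1.55% in wild type. These values varied more among libraries and did not separate the groups either. The mean log2 CPM of the members minus that of the markers was −6.31 and −6.33 in the mutant libraries and −6.30 and −6.31 in wild type. Measured against the markers gene by gene, the difference between groups was 0.39 for Acad8, −0.39 for Aldh6a1, 0.23 for Acadsb and −0.20 for Mcee, and within 0.09 of 0 in the other 5 genes. In this measure 7 of the 9 genes overlapped between groups. Acad8 was higher in both mutant libraries than in either wild-type one. Pcca was lower only narrowly, at −7.34 and −7.2 in the mutant libraries against −7.18 and −7.19 in wild type. The share of all genes that separate in this measure was not computed. Fewer cardiomyocytes and less of these RNAs per cardiomyocyte cannot be told apart in whole-heart RNA.

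**Figure D3:**
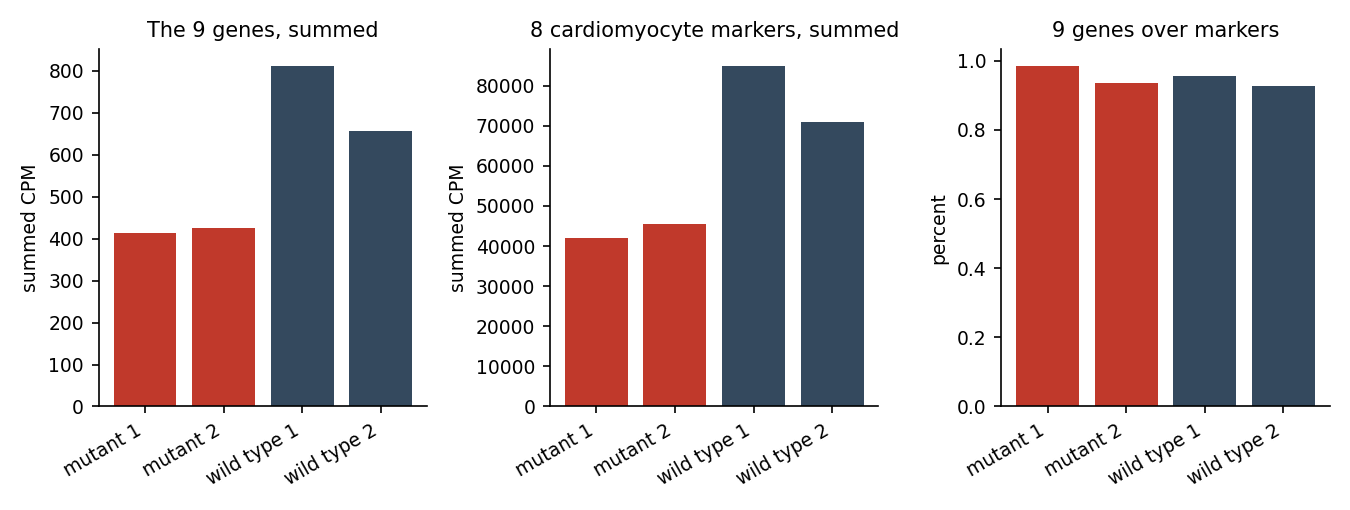
Summed CPM of the 9 genes, summed CPM of 8 cardiomyocyte markers (Myh6, Tnnt2, Tnni3, Actc1, Myl2, Myl3, Ryr2 and Pln), and the first as a percentage of the second, for each library. Both sums are lower in the mutant libraries, while the percentage lies between 0.928% and 0.984% in all 4 libraries. With Myh6 left out of the markers (not drawn) the percentage lies between 1.32% and 1.55%.

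Markers of other cells moved in several ways. Of 8 fibroblast markers 7 had higher values in both mutant libraries than in either wild-type one, as had 4638 of all 15283 genes tested. In that list 1 marker was called (Postn, higher). The fibroblast markers summed to 5754 and 6106 CPM in the mutant libraries against 3375 and 3903 CPM in wild type. Endothelial markers summed to 1690 and 1460 CPM in the mutant and 989 and 1340 CPM in wild type. For mural cells the sums were 2450 and 2570 CPM against 2090 and 2400 CPM, and for macrophages 216 and 242 CPM against 221 and 181 CPM. The 4 cycling-cell markers were all called higher, with sums of 83.4 and 85.7 CPM against 16.3 and 26.6 CPM. Erythroid markers summed to 539 and 863 CPM in the mutant libraries and 710 and 506 CPM in wild type. Epicardial markers summed to 46 and 27.8 CPM against 45.2 and 48.1 CPM. Of these 4 markers Wt1 rose (log2 fold change 0.99, edgeR FDR 0.0345), while Upk3b, Msln and Upk1b had lower values in both mutant libraries without passing the test, and the list median was −0.95. Schwann cell markers summed to 16.1 and 14.1 CPM against 9.72 and 10.7 CPM. Sums were at most 15.4 CPM for liver, 0.479 CPM for lung epithelium, 3.03 CPM for adipose tissue and 0.801 CPM for skeletal muscle. Alb, Sftpc, Lep, Myh4 and Myh1 had 0 counts in all 4 libraries. The part of these cell types in the lower levels of the 9 genes was not tested.

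Some genes before and between the members in the pathway also fell. Of 9 genes of transamination, mitochondrial uptake and the branched-chain oxoacid dehydrogenase, 4 fell, 0 rose and 5 did not pass, with a median log2 fold change of −0.86. Dbt, the transacylase core of that dehydrogenase, had 8.81 and 8.54 CPM in the mutant libraries against 24.8 and 24.3 CPM in wild type (edgeR FDR 0.00959). Bckdha, its alpha subunit, had 21.1 and 18.7 CPM against 68.1 and 51 CPM (edgeR FDR 0.0115), and Dld and Ppm1k, the shared dihydrolipoyl dehydrogenase and the phosphatase that activates the complex, fell by 1.16 and 0.87 on the log2 scale. All 4 listed genes of hydration, oxidation or thiolysis in branched-chain amino acid or fatty acid breakdown fell, with a median of −1.26. Not every one of them serves both valine and isoleucine. These were Hadh (−1.35), Echs1 (−1.30), Acat1 (−1.23) and Hadha (−1.02). Echs1, the hydratase between Acad8 and Hibch, had 86.3 and 96.1 CPM in the mutant libraries and 265 and 182 CPM in wild type. In the leucine branch 3 of 5 genes fell and 2 did not pass (median −1.12), led by Ivd (−1.78), Mccc1 (−1.58) and Mccc2 (−1.12).

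Downstream of Mcee the changes were smaller in most cobalamin genes. Of 9 genes of the methylmalonyl-CoA mutase and its cobalamin supply, 2 fell and 7 did not pass, with a median of −0.54. Mut, the mutase itself, had 19.3 and 23.4 CPM in the mutant libraries against 44.3 and 39.4 CPM in wild type (log2 fold change −0.97, edgeR FDR 0.0291). Mmachc, a cobalamin-processing protein, fell by 1.05 (edgeR FDR 0.0244). At the exit to the cycle, the succinyl-CoA ligase genes Sucla2 (−1.28) and Suclg2 (−0.96) fell and Suclg1 did not pass. Of 3 biotin genes 0 were called by edgeR, DESeq2 or limma-voom and 0 had an unadjusted edgeR p under 0.05. Btd, which recycles biotin, had 15.5 and 17.6 CPM in the mutant libraries against 15.6 and 12.1 CPM in wild type, and Pcx, the biotin enzyme pyruvate carboxylase, had 6.38 and 7.8 CPM against 8.81 and 8.12 CPM. The biotin list's median was −0.26 with TMM and 0.14 on library totals, the only one of these lists whose median changed sign there.

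Among side routes of acyl-CoA handling, 3 of 4 tested genes fell, and Acss3 did not pass the filter on low counts. Echdc1, a decarboxylase that removes ethylmalonyl-CoA, had 0.518 and 0.589 CPM in the mutant libraries against 3.03 and 1.99 CPM in wild type. These rest on few reads, 13 and 8 counts against 53 and 39, and the fold change had an SE of 0.45. Crat, the carnitine acetyltransferase (log2 fold change −1.34), and Mlycd, malonyl-CoA decarboxylase (−1.29), fell as well. Of 4 transcriptional regulators, Ppargc1a (−1.67, edgeR FDR 0.039) and Ppara (−1.37, edgeR FDR 0.0398) fell, and Esrra and Klf15 did not pass. Ppargc1a had 79.9 and 40.4 CPM in the mutant libraries against 141 and 244 CPM in wild type. It was thus higher in wild type replicate 2 than in replicate 1, as were Ppara (14.9 against 11 CPM) and Klf15 (50.3 against 44.7 CPM). Esrra was higher in replicate 1 (165 CPM, against 134 CPM in replicate 2), as were 7 of the 9 members. Whether these regulators bear on the members was not tested.

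**Figure D4:**
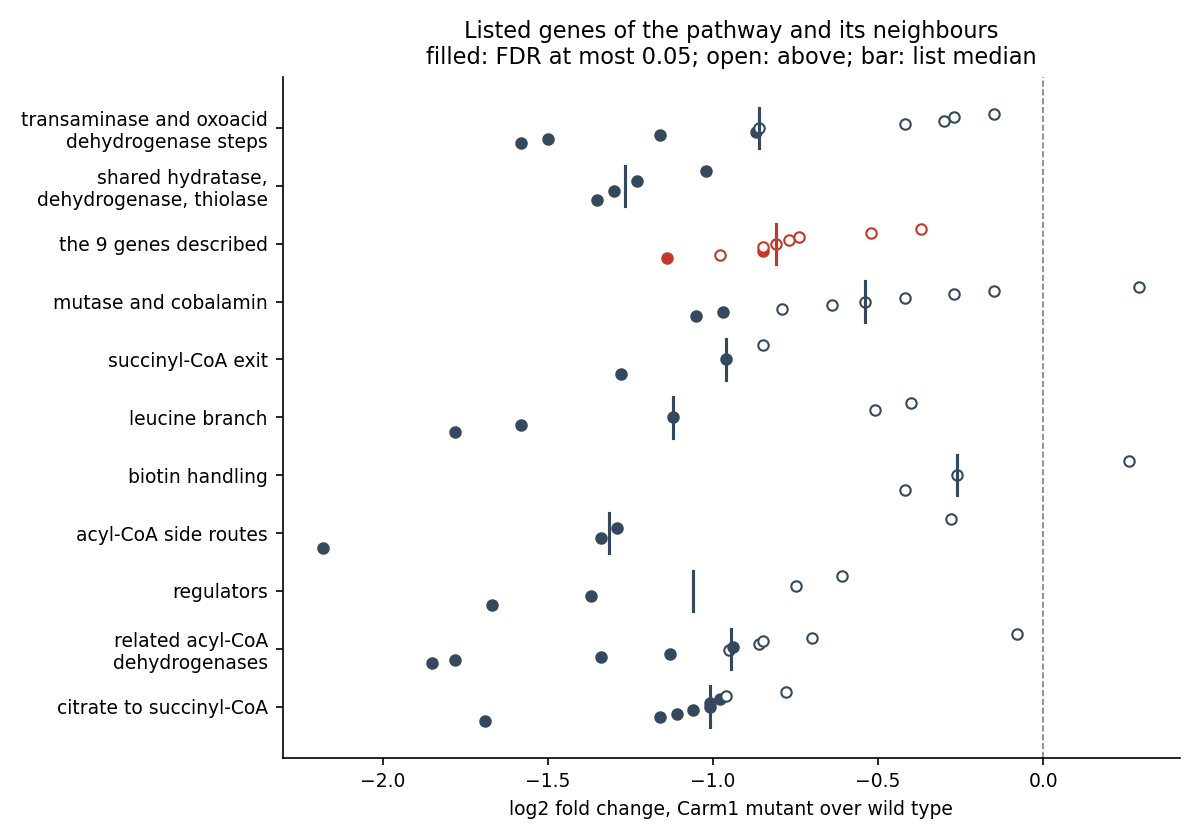
Fitted log2 fold change, Carm1 mutant over wild type, of each tested gene in the 9 genes and in 10 neighbouring lists. Filled points passed an edgeR FDR of 0.05, open points did not, and bars are list medians. Abcd4 (0.29) and Btd (0.26) are the points right of 0.

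Over these 10 lists 30 of 58 tested genes fell, 0 rose and 28 did not pass, with a median of −0.95, beside −0.81 in the 9 members and 0.02 in all genes. Of all tested genes 4.58% were called lower. The lists were chosen with earlier results of these data known, so nothing is read from the number called. The acyl-CoA dehydrogenases related to Acad8 and Acadsb had 5 of 10 genes lower (median −0.94), with Acadvl (−1.85), Ivd (−1.78), Acad11 (−1.34) and Acadm (−1.13) the leading ones. The enzymes from citrate to succinyl-CoA had 7 of 9 lower (median −1.01), with Dld (−1.16), Cs (−1.11) and Idh3a (−1.06) among them. Whether the members differ from these lists was not tested. The 30 calls were 7 and 6 without mutant replicates 1 and 2 and 41 and 47 without wild type replicates 1 and 2, and 15 on library totals. Median values of the 10 lists without wild type replicate 1 ran from −1.15 (side routes) to −0.22 (biotin).

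Outside all lists, Actn2 and Gnpat were among the genes whose profile over the 4 libraries came nearest to the members' mean profile. Likeness was the root-mean-square difference of log2 CPM, each profile centred on its own mean, and was 0.011 for Actn2 and 0.02 for Gnpat, while the members themselves lay 0.029 to 0.298 from their mean. Actn2, the alpha-actinin of the cardiac Z-disc, had 1620 and 1680 CPM in the mutant libraries against 3100 and 2540 CPM in wild type. Gnpat, an enzyme of ether lipid synthesis in peroxisomes, had 127 and 134 CPM in the mutant libraries against 248 and 205 CPM in wild type. A likeness over 4 libraries is a description of these libraries.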

How the data were processed

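The data are raw read counts per gene as the authors deposited them, whole numbers in 1 column per library. The tools named in the submitters' processing notes are FastQC and HISAT2, and the build is mm10. Versions, the counting program, the annotation and any use of strand were not stated there. Columns were matched to samples by title. Identifiers were named with GENCODE M21, which is on the same assembly, and 29 of 54752 had no name. All coordinates are 1-based.

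Genes were kept with filterByExpr (15283 genes), and TMM factors were computed. The quasi-likelihood test of edgeR 4.0.16 (R 4.3.3) compared the genotypes, with no covariate and 2 residual degrees of freedom. P-values were adjusted by Benjamini-Hochberg over all genes tested, with a threshold of 0.05. A standard error is the log2 fold change over the square root of F. RPKM divides CPM by the length of the transcript with the longest coding sequence. Log2 CPM used a prior count of 2. In counts simulated for this comparison over 15283 genes, 95 of 100 genes with a log2 change of 2 in size and 46 of 100 with a change of 1 were called. So were 9 of 15083 genes with no change. The simulation gave all genes and both groups the same dispersion and no trend with length, unlike these libraries.

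The members and lists were chosen with earlier results of these data known. Genes named are the 9 members, Carm1, up to 4 called genes of each list by adjusted p (the 2 most abundant where none was called) and the 3 nearest profiles, of which some are not reported here; cell type markers, Abcd4, Suclg1, Acss3, Esrra, Klf15, Bbof1, Ggact and genes at 0 were named after their values were seen. The mutase is listed as Mut and pyruvate carboxylase as Pcx in GENCODE M21. The alternatives used DESeq2 1.42.0, limma 3.58.1 and, for length and GC trends, mgcv 1.9.3. Processed copies were found with BLAST+ 2.17.0 at 90% identity over at least 50% of the copy. No label says that the replicates are separate animals, and p-values may therefore reflect technical spread only. A chi-square test of counts (genes with 10 or more counts in a pair) found that neither pair of replicates agreed within counting error. Promoter sequences are from RefSeq, GRCm38.p6.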

Additional observations from a re-analysis of the deposited data

How the results depend on the processing

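Over 18 alternatives the median log2 fold change of the 9 genes stayed below 0, from −1.04 to −0.41. The FDR of 0.10 reuses the main fit and could not move this median, and the edgeR robust fit gave the same value (−0.8128). The median left the main value of −0.81 by more than the spread between replicates on library totals (−0.41) and without wild type replicate 1 (−0.57). Without a library in turn it ran from −1.04 to −0.57. The only value to change sign was that of Acad8 on library totals (0.0326). Of the members, 2 were called lower in the analysis given above, 0 on library totals, 1 with upper-quartile factors, 4 with a filter of 1 CPM in 2 libraries, 6 at an FDR of 0.10, and 7 with no low-count filter, with the DESeq2 Wald test or with length and GC offsets. The number was 0 to 9 with a library left out in turn. Among all genes 1126 were called, against 1709 with DESeq2, 2488 at an FDR of 0.10, 2630 with no low-count filter, 2802 with length and GC offsets, and 377 to 5679 with a library left out. For the neighbouring lists 30 lower calls became 15 on library totals and 6 to 47 with a library left out. On library totals all genes split into 1189 higher and 206 lower calls, against 426 and 700 with TMM, and with upper-quartile factors into 506 and 554. Of all tested genes 4.58% were called lower in the main fit, 1.35% on library totals, 3.62% with upper-quartile factors and 5.09% with the 1 CPM filter. The share was 9.23% at an FDR of 0.10, 5.52% with no low-count filter, 7.92% with DESeq2 and 10.6% with length and GC offsets. The cause of these changes was not tested, except that the FDR of 0.10 is looser by construction.

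Groups share replicate numbers, but no label says that a number marks a shared litter or day. The replicate 1 minus replicate 2 differences of the 2 groups correlated at −0.247 across genes, so the numbers were not taken as pairs. With the replicate block 2 members and 1222 genes were called, the members being Aldh6a1 and Mcee (FDR 0.0307) and no longer Pcca (FDR 0.0595), and together with length and GC offsets 7 members and 2840 genes. A crossed replicate block, chosen after seeing the data, called 8 members and 4176 genes. The shares of all tested genes called lower in these block fits were 4.2%, 10% and 14%, in the order given.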
